A study of Homo sapiens with 4 samples.

Results

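The fibroblast growth factor (FGF) genes described here are the ligands FGF19 and FGF21, the receptors FGFR1, FGFR2, FGFR3 and FGFR4, and the co-receptor KLB, together 7 genes chosen by name among the 34809 gene names of the array. Every probe other than a control that carried one of these names was taken, which gave 12 of 42405 probes and 20 spots per array. The samples were Hep3B, a human hepatocellular carcinoma line, transfected with an shRNA plasmid and selected with puromycin. One array held cells with the control plasmid shR-MOCK, and 3 arrays held cells with shR-467, shR-554 or shR-749, each named after the position in UNC50 mRNA that its hairpin targets. UNC50 encodes a Golgi membrane protein, and the arrays were made to find genes whose expression depends on it. The 3 hairpins were counted as 3 replicates of UNC50 knockdown, so their spread holds effects of a single hairpin as well as differences between cultures, and the 1 mock array gives no spread between control cultures. Each sample was a selected pool of cells of 1 line.

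FGF19 and FGF21 are endocrine members of the FGF family, which bind heparan sulfate weakly and need a Klotho protein beside the receptor. In the liver this partner is β-Klotho, the product of KLB. FGF19 is released by the ileum in response to bile acids, acts on FGFR4 and β-Klotho of hepatocytes and represses bile acid synthesis, and it lies in the 11q13 region that is amplified in some hepatocellular carcinomas. FGF21 is a hepatic hormone of fasting and stress that signals mainly through FGFR1 with β-Klotho. The receptors are tyrosine kinases that pass the signal through FRS2, GRB2 and RAS to ERK, and Sprouty and DUSP proteins dampen it.

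The arrays read each gene through probes of 60 bases, so a value refers to 1 short stretch of the transcript. The probes of 3 genes are printed here because what they can show differs. The probe of FGFR4 (hg19 chr5:176523121-176523180, plus strand) lies in the kinase part of the coding sequence, where the capitals mark the codons for the Asp-Phe-Gly motif of the activation loop. The second probe of FGFR2 (chr10:123243217-123243276, minus strand) and the only probe of FGF21 (chr19:49260204-49260263, plus strand) were each well above background on 2 of 4 arrays. All 3 are shown 5′ to 3′ in the sense of the transcript.
FGFR4: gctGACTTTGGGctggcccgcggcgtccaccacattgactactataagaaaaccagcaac
FGFR2, second probe: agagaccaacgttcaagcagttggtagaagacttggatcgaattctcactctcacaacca
FGF21: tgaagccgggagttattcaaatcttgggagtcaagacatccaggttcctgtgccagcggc

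UNC50 itself was lower with every hairpin, at 24.0% of mock under shR-467, 13.7% under shR-554 and 18.7% under shR-749. Hepatocyte markers were well above background on all 4 arrays for 8 of 8 genes, and ALB gave a signal of 245000 on the mock array. Among 12 markers of leukocytes, endothelial and stellate cells, 7 were well above background on all 4 arrays, with mean log2 differences from mock between -0.32 (CD3E) and 0.51 (CDH5). Their signals were 2960 to 3755 for CD68, 1750 to 2745 for CD14, 127 to 194 for PECAM1, 75.3 to 190 for CDH5, 58.1 to 106 for PTPRC, 45.9 to 49.7 for CD3E and 30.0 to 39.0 for VWF. The stellate genes COL1A1, COL3A1 and ACTA2 and the endothelial gene LYVE1 were near background on every array. Between 67.6% and 73.6% of spots per array were well above background, no spot was saturated, and all arrays shared 1 slide and 1 scan. Levels below are the log2 of the processed signal relative to the 75th percentile of the array, and differences are a hairpin's level minus that of mock.

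Of the 7 genes, 5 (FGF19, FGFR2, FGFR3, FGFR4 and KLB) were well above background on all 4 arrays through at least 1 probe, FGFR1 on some arrays, and FGF21 only in single spots. None of these 5 genes reached a 1.5-fold mean difference between knockdown and mock in either direction. Across all 21487 genes measured on 4 arrays, 2.92% were at least 1.5-fold lower and 2.34% at least 1.5-fold higher on average. Each gene is read from its brighter probe here. By that probe the 3 hairpins lay on both sides of mock for each of the 5, whereas all 3 lay below mock for 18.4% of all genes and above it for 20.2%. The second probe of KLB put all 3 hairpins below mock. By the brighter probe, the hairpin range exceeded the mean difference for each of the 5, which follows from lying on both sides of mock. Limma's test over 25149 genes gave an adjusted p of 0.9998 for each of the 6 genes that could be fitted. Over all genes it called 0 at an adjusted p under 0.05, with 381 at an unadjusted p under 0.05, and the methods' t-test also called 0 after Benjamini-Hochberg adjustment, with 646 before it. An exact permutation of 1 array against 3 cannot go below p = 0.25, so each comparison below is a description. An interval is given for FGF19, FGFR2, FGFR3, FGFR4 and KLB by the brighter probe, and other comparisons carry at most an SD.

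**Figure D1:**
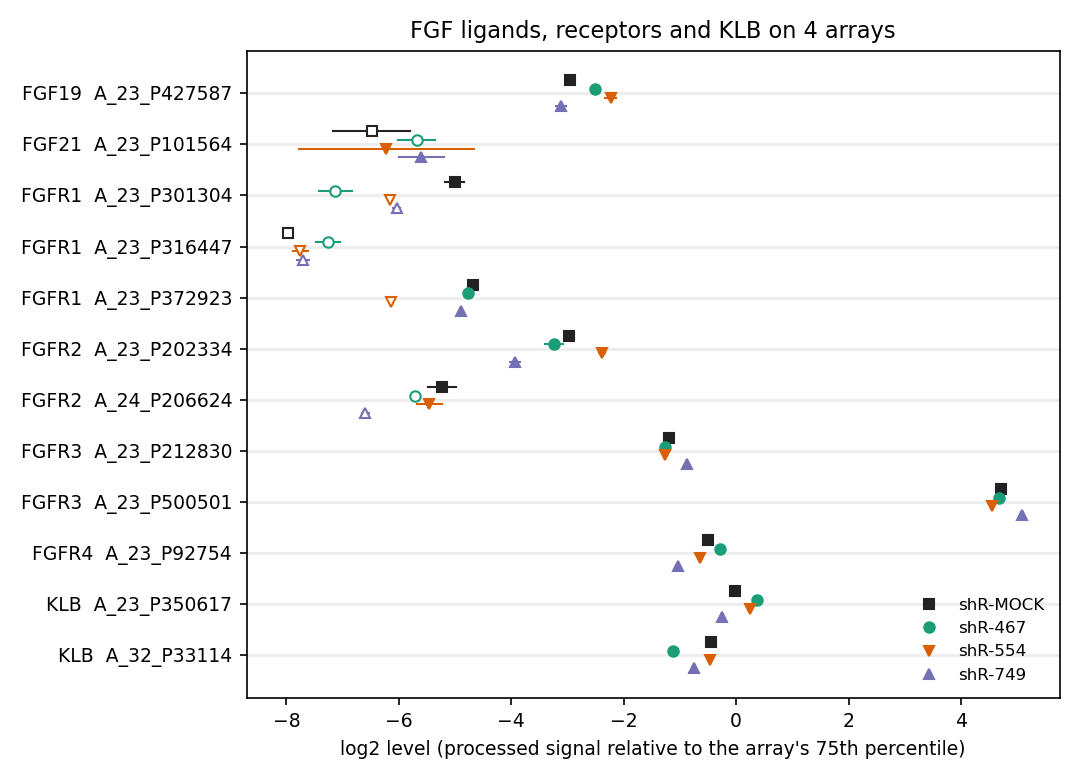
Log2 level (processed signal relative to the array's 75th percentile) of all 12 probes on the 4 arrays. Points are means over the spots of a probe, lines run from the lowest to the highest spot, and open points were not well above background and have no order. Levels of different probes are not comparable with one another. FGFR3, FGFR4, KLB, FGF19 and the first FGFR2 probe are filled on every array. FGF21 and the second FGFR2 probe are filled on 2 arrays, and 1 FGFR1 probe is filled on none.

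FGF19 was transcribed in Hep3B at a level that its probe measured on every array, and the hairpins disagreed about its direction. The probe lies on chromosome 11 at 69513911 to 69513970 (minus strand) and was printed in 2 spots. Its signal was 145 on the mock array, 172 under shR-467, 296 under shR-554 and 130 under shR-749, which scaled to log2 levels of -2.95, -2.51, -2.23 and -3.12. Relative to mock, FGF19 stood at 136% under shR-467, 165% under shR-554 and 89.0% under shR-749. The array with shR-554 was thus highest and that with shR-749 lowest, with mock between them. The spots of an array differed by 0.05 to 0.20 on the log2 scale, and no array's spots overlapped those of the next in order, while the hairpins spread over 0.89. The mean difference was 0.33 ± 0.45 (SD, n = 3 hairpins), with a 95% interval from limma of -0.61 to 1.28, and it was 0.14 without shR-554 and 0.58 without shR-749. The interval runs from 0.653 to 2.43 times mock, so a level of FGF19 more than 2-fold that of mock lies inside it. Among all genes measured on 4 arrays, 85.0% had a smaller SD between hairpins than FGF19, and the median SD was 0.22.

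FGF21 could not be measured with confidence. Its signals were 14.0 on the mock array, 19.6 under shR-467, 30.6 under shR-554 and 24.2 under shR-749, and the lowest signals well above background on these arrays were 21.2, 25.5, 28.3 and 25.0. Neither spot was well above background on the mock and shR-467 arrays, and 1 of 2 was on each of the shR-554 and shR-749 arrays. The spots of one array lay up to 3.12 apart on the log2 scale, and those of all neighbouring arrays overlapped. With mock at background no fold could be given. FGF21 was not part of the test.

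FGFR4, the hepatocyte receptor for FGF19, gave signals of 790 on the mock array, 801 under shR-467, 891 under shR-554 and 550 under shR-749. Scaled to each array, FGFR4 stood at 116% of mock under shR-467, 90.9% under shR-554 and 69.0% under shR-749. The raw signal was highest with shR-554 but the scaled level with shR-467, because the 75th percentile was 1390 on the shR-554 array and 978 on the shR-467 array. The spots agreed within 0.06 on every array, and no neighbouring arrays overlapped in their spots. The differences of 0.22, -0.14 and -0.54 averaged -0.15 ± 0.38 (SD, n = 3), with a 95% interval of -0.91 to 0.61, and the mean was 0.04 without shR-749. FGFR4 was lowest with shR-749, as was FGF19, but shR-554 placed FGF19 above mock and FGFR4 below it.

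FGFR3 and KLB were each read by 2 probes well above background on every array. Those of FGFR3 gave like differences from mock at unlike signals. One probe (chromosome 4, 1810363 to 1810422, 2 spots) gave signals of 29500 for mock, 24850 under shR-467, 32750 under shR-554 and 38450 under shR-749. The other, 1249 bases before it and printed once, gave 491, 409, 580 and 613. Both ordered the arrays alike, with shR-749 highest, then mock, shR-467 and shR-554. The hairpin differences were -0.05, -0.16 and 0.37 with the first probe and -0.07, -0.07 and 0.31 with the second. Between the probes these differences deviated by at most 0.09. The mean of the first probe was 0.05 ± 0.28 (SD, n = 3, 95% interval -0.49 to 0.59) and -0.11 without shR-749, and the spots of mock and shR-467 overlapped.

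FGFR2 varied most between hairpins. Its main probe (chromosome 10, 123238271 to 123238331, minus strand) gave signals of 143 for mock, 104 under shR-467, 267 under shR-554 and 74.0 under shR-749. The differences were -0.26 under shR-467, 0.59 under shR-554 and -0.96 under shR-749, so 2 hairpins lay beyond 1.5-fold in opposite directions. Of all genes measured on 4 arrays, 96.6% had a smaller SD between hairpins. The mean was -0.21 ± 0.78 (SD, n = 3), with a 95% interval of -1.56 to 1.14, and the mean was 0.17 without shR-749. The second probe, printed above and 4885 bases away, gave 30.2 for mock, with both spots above background, and 32.0 under shR-554, with 1 of 2. Scaled to each array, the second probe put shR-554 at -0.22, below mock, whereas the main probe put it at 0.59, above mock. The mock and shR-554 spots of the second probe overlapped. Its signals of 18.6 under shR-467 and 11.7 under shR-749 were not above background, so it gives no size of difference for these hairpins.

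FGFR1, the usual partner of β-Klotho for FGF21, was close to the detection limit. One probe (chromosome 8, 38314973 to 38315032, 1 spot) gave 43.9 for mock, 36 under shR-467, 19.6 under shR-554 and 37.8 under shR-749, and the value of shR-554 was not well above background. Its differences were -0.09, -1.47 and -0.23, with a mean of -0.60 ± 0.76 (SD, n = 3). The mean was -0.16 without the dim shR-554 spot, -0.12 after normexp and quantile normalization, and -1.02 when averaged with the second probe. A second probe (38270470 to 38270529) exceeded background for mock alone, with a signal of 35.0 there and 7.10 to 19.5 with the hairpins. Against the lowest measurable signal this is at least 1.37-fold lower with knockdown, but the probe was measured through the single mock array alone, so the direction followed from that selection. The third probe was never well above background, with signals of 4.5 to 6.5.

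KLB gave conflicting readings from its 2 single-spot probes, which lie 2749 bases apart on chromosome 4. The first (39450122 to 39450181) gave signals of 1100 for mock, 1270 under shR-467, 1650 under shR-554 and 945 under shR-749. The second (39452931 to 39452990) gave 820, 449, 1010 and 668 in the same order. By the first probe the hairpins differed from mock by 0.40, 0.27 and -0.23, a mean of 0.15 ± 0.34 (SD, n = 3, 95% interval -0.55 to 0.85) that became 0.02 without shR-467 and 0.34 without shR-749. By the second they differed by -0.67, -0.01 and -0.31, a mean of -0.33 ± 0.33. The average of both probes was -0.09. The array with shR-467 was therefore the highest in one reading of KLB and the lowest in the other, and the probes deviated by 1.08 there against 0.28 and 0.08 for shR-554 and shR-749.

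**Figure D2:**
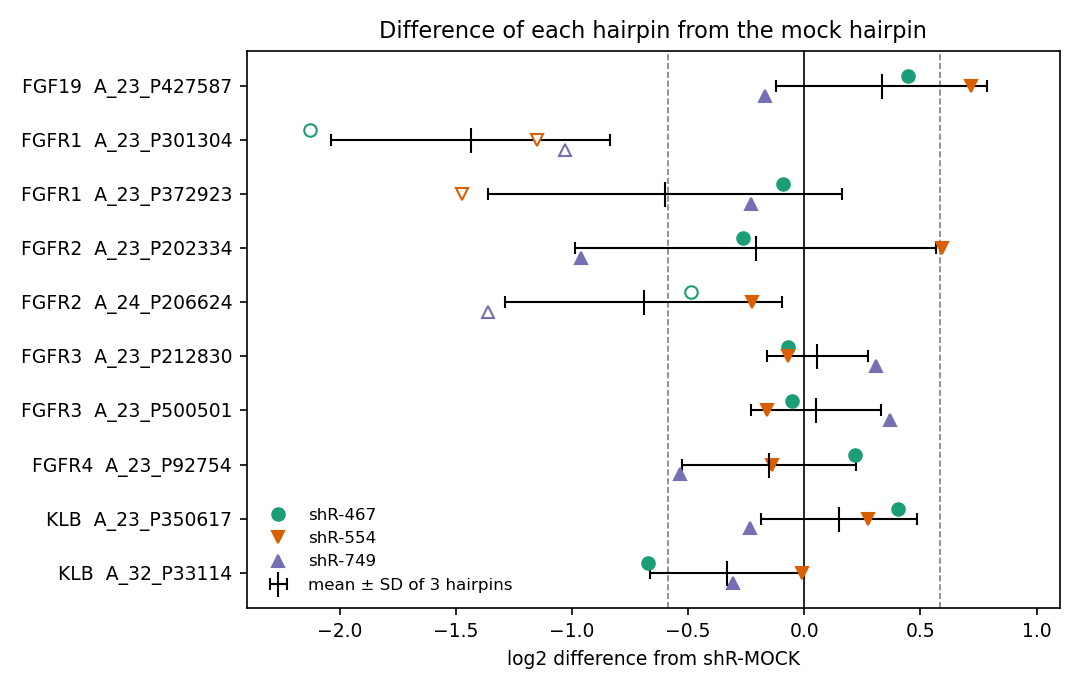
Log2 difference of each hairpin from shR-MOCK for the 10 probes detected above background either on mock or with all 3 UNC50 hairpins. Bars are mean ± SD of the 3 hairpins, open points were not well above background, and dashed lines mark 1.5-fold. The 2 FGFR3 probes place every hairpin alike, whereas the 2 KLB probes place shR-467 on opposite sides of mock.

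By the brighter probe of each gene, 4 of the 5 genes measured on every array (all but FGFR3) had their lowest level with shR-749, and FGFR3 had its highest level there. The second KLB probe was instead lowest with shR-467. The share of all genes lowest with shR-749 was not counted, so no trait of these genes can be read from this. FGF19 and FGFR4 did not share an order of arrays. Over the 4 arrays, the gene closest to FGF19 was SGK2, a serum and glucocorticoid regulated kinase, with a root mean square distance of 0.01 in log2 levels centred on each gene's mean, and 686 of 21486 genes lay within 0.2. FGFR4 was matched most closely by the glycolytic enzyme gene PGAM1 at 0.008, the creatine transporter gene SLC6A8 at 0.01 and the Sprouty gene SPRY1 at 0.02. With 4 arrays such matches are common, since 3296 genes lay within 0.2 of FGFR4.

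Beyond the 7 genes, 8 lists of ligands, binding proteins, pathway components and targets were described by their counts among genes measured on all 4 arrays. On average over the hairpins, most members lay within 1.5-fold of mock, and the genes past it were all lower with knockdown. The lists were drawn up with earlier results of these arrays known, CCND1 included. No list gene passed the limma test, and the smallest adjusted p among them was 0.9746, for FABP6. A gene was at least 1.5-fold lower with every hairpin in 0.475% of all genes and at least 1.5-fold higher in 0.568%. In bulk RNA, fewer cells of a kind and less RNA per cell cannot be told apart.

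Among 20 other FGF ligand genes, 6 were measured on all 4 arrays and none lay beyond 1.5-fold on average. With single hairpins FGF12 reached 0.92 (shR-749) and FGF22 0.67 (shR-467), past 1.5-fold. The median difference of the 6 genes was 0.07, beside 0.002 over all genes. FGF12 was at 0.43 ± 0.56 and FGF22 at 0.26 ± 0.37, while FGF9 was at -0.17 ± 0.15 (SD, n = 3 each). These genes were dim, with mock signals of 25.0, 32.7 and 39.5, where the lowest signal well above background was 21.2. After normexp and quantile normalization FGF12 came to 0.18, FGF22 to 0.16 and FGF9 to -0.004. Without 1 hairpin FGF12 came to 0.19 (shR-749 left out) and FGF22 to 0.05 (shR-467 left out). Of 9 FGF-binding and accessory genes, 4 were measured. FGFBP3, a secreted FGF-binding protein, was above mock with every hairpin, by 0.47, 0.65 and 0.45 (mean 0.52 ± 0.11). No other gene of the 4 had all 3 hairpins above mock, which held for 20.2% of all genes. The FGFBP3 probe was printed in 1 spot, and its mean came to 0.36 after normexp and quantile normalization. FGFRL1, a receptor-like protein without a kinase domain, was at -0.17 ± 0.33, and at -0.02 without shR-467.

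Heparan sulfate chains are the matrix co-factor of paracrine FGFs, and 24 of 33 genes for their core proteins and enzymes were measured. HS3ST1, a 3-O-sulfotransferase, was the only one past 1.5-fold on average. Its signal was 375 for mock and 185 (shR-467), 294 (shR-554) and 109 (shR-749) for the hairpins, over 10 spots per array. All 3 hairpins lay below mock, by -0.82, -0.67 and -1.79 (mean -1.09 ± 0.61). That was so for 6 of the 24 genes (18.4% of all genes), while all 3 lay above mock for 4 (20.2%). GPC3, the glypican abundant in hepatocellular carcinoma, gave signals of 41850 with mock and 49550 to 64450 with the hairpins, a mean difference of 0.38 ± 0.44 that was 0.16 without shR-467. Scaled to each array, GPC3 under shR-554 was below mock, at -0.07 with this probe and -0.28 with another. The mean of that other probe was 0.19 ± 0.42. The core protein gene AGRN was at -0.33 ± 0.02 and GPC4 at -0.37 ± 0.15.

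The adaptors and the RAS-ERK cascade stayed near mock on average, with 21 of 22 genes measured, none past 1.5-fold and a median of -0.08. With shR-749 alone HRAS was at -0.84 and MAPK3 at -0.60, both past 1.5-fold, while HRAS was at 0.15 with shR-554. NRAS was at -0.42 ± 0.14 and HRAS at -0.36 ± 0.49. CBL, a ubiquitin ligase that acts on receptor tyrosine kinases, was at -0.26 ± 0.26 and MAPK3, which encodes ERK1, at -0.24 ± 0.32. HRAS came to -0.12 and MAPK3 to -0.06 without shR-749, and CBL to -0.11 without shR-554.

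Of 20 feedback and ERK-responsive genes, 19 were measured, 4 were at least 1.5-fold lower on average (2.92% of all genes) and none was higher. The hairpins were all below mock for 11 of the 19 (18.4% of all genes) and all above it for none (20.2%), and the median was -0.19. CCND1, encoding cyclin D1, was the only one past 1.5-fold with every hairpin, at -0.91, -1.68 and -1.33. DUSP6, the cytoplasmic ERK phosphatase, had a signal of 4545 with mock and 3115, 2575 and 2175 with the hairpins (mean -0.85 ± 0.44), and shR-467 did not reach 1.5-fold. SPRY4, a Sprouty inhibitor, was at -0.82 ± 0.26 with its main probe but at -0.05 ± 0.30 with another, and at -0.43 as the mean over both. The transcription factor gene ETV4 was at -0.91 and -1.28 with shR-467 and shR-749 and at -0.03 with shR-554, and its mean without shR-749 was -0.47, short of 1.5-fold. IER3, an immediate early gene, was at -0.46 ± 0.58, and at -0.13 without shR-749. Other receptors also feed these genes, and the source of their signal was not tested.

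**Figure D3:**
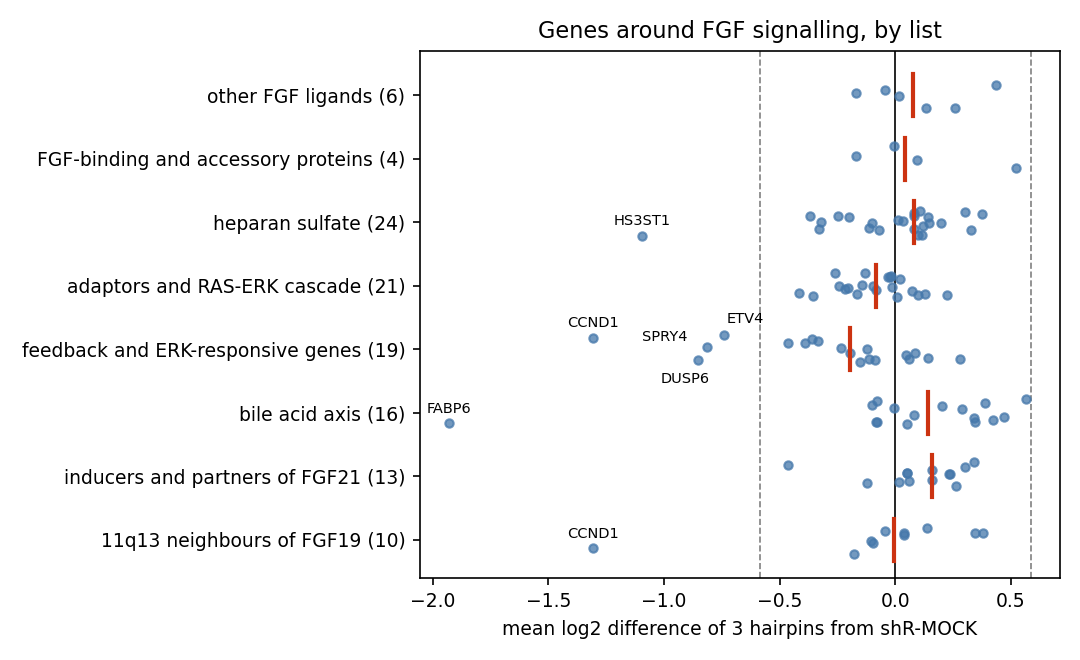
Mean log2 difference of the 3 hairpins from shR-MOCK for each gene measured on all 4 arrays, by list, with the number of genes in brackets. Red bars are list medians, dashed lines mark 1.5-fold, and vertical scatter within a list carries no value. The 4 feedback genes past the line, HS3ST1 and FABP6 are all lower with knockdown, and CCND1 appears in 2 lists.

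On the bile acid side, 16 of 19 genes were measured, with a median of 0.14. On average 1 was at least 1.5-fold lower and none was higher. All 3 hairpins lay above mock for 4 of the 16 (20.2% of all genes) and below it for 1 (18.4%). FABP6, which encodes the ileal bile acid-binding protein, had a signal of 333 for mock and 86.9 (shR-467), 83.7 (shR-554) and 100.4 (shR-749) for the hairpins. Its differences of -1.74, -2.30 and -1.74 (mean -1.93 ± 0.32) did not overlap with mock and were close to one another. NR0B2, the small heterodimer partner through which bile acid sensing represses synthesis, was above mock with every hairpin, at 0.58, 0.28 and 0.41 (mean 0.42 ± 0.15). BAAT, which conjugates bile acids, was at 0.57 ± 0.55, the bile acid receptor gene GPBAR1 at 0.47 ± 0.48, and RXRA, the partner of nuclear receptors, at 0.39 ± 0.22. Without shR-554, BAAT came to 0.25 and GPBAR1 to 0.20. CYP7A1, the rate-limiting enzyme of bile acid synthesis that FGF19 represses, was singled out after its values were seen. It gave signals of 41.1, 28.6, 37.5 and 83.8, and was above mock only with shR-749 (mean 0.05 ± 0.83). Hepatocyte markers also stood above mock on average, with 3 of 8 at least 1.5-fold higher (2.34% of all genes) and a median of 0.25. Every hairpin was above mock for 4 of the 8 (20.2% of all genes), while APOB, SERPINA1, TF and HNF4A each had a hairpin below it. APOA1 was at 1.01 ± 0.38, AFP at 0.91 ± 0.67 and TTR at 0.81 ± 0.29, and their part in the bile acid values was not tested.

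All 13 genes listed as inducers or partners of FGF21 were measured and none lay beyond 1.5-fold on average, with a median of 0.16. Single hairpins passed it in both directions, such as DDIT3 at 0.99 under shR-749 and NUPR1 at -1.18 under shR-554. Among stress-induced genes, CHAC1 was at 0.34 ± 0.53, ATF3 at 0.30 ± 0.42, TRIB3 at 0.26 ± 0.12 and NUPR1 at -0.46 ± 0.62. CHAC1 and ATF3 came to 0.06 each without shR-749, and NUPR1 to -0.11 without shR-554. Another ATF3 probe was at -0.47 with every hairpin below mock, and the mean over the ATF3 probes was 0.07. Of the 11 neighbours of FGF19 at 11q13, 10 were measured, and CCND1 alone was past 1.5-fold on average. ORAOV1, which lies between CCND1 and FGF19, was at 0.38 ± 0.26, TPCN2 at 0.34 ± 0.24, MYEOV at -0.18 ± 0.31 and SHANK2 at 0.14 ± 0.23. MYEOV came to -0.01 without shR-467. The median of this list was -0.004.

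**Figure D4:**
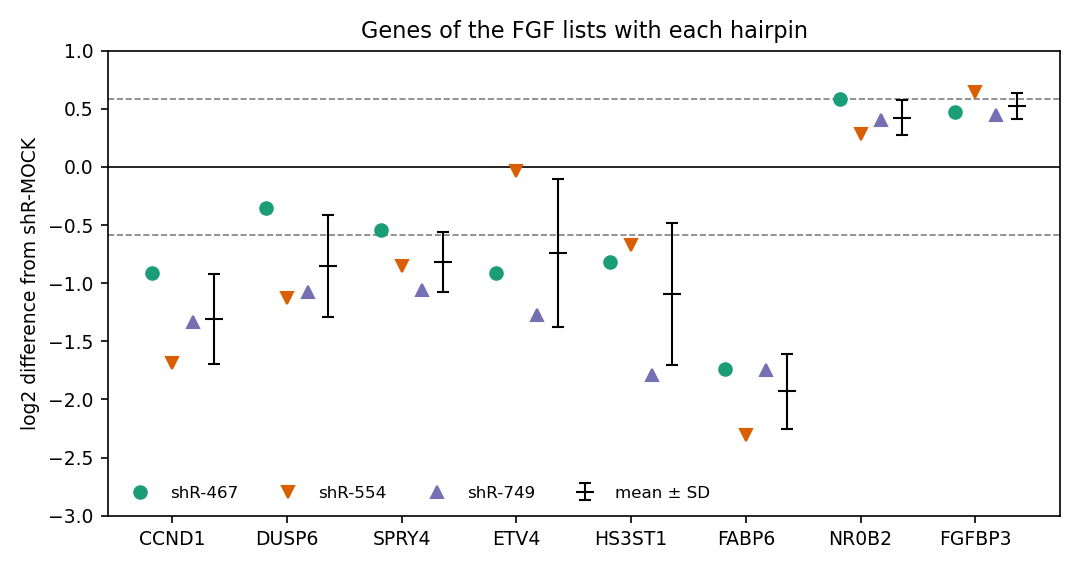
Log2 difference from shR-MOCK of 8 genes of the lists with each hairpin, and mean ± SD of the 3 hairpins. Dashed lines mark 1.5-fold. CCND1, HS3ST1 and FABP6 lie below the lower line with every hairpin (0.475% of all genes). NR0B2 and FGFBP3 lie above mock with every hairpin (20.2% of all genes).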

How the data were processed

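For each array the authors deposited Agilent Feature Extraction 10.7.1.1 output, with a background-subtracted intensity per spot, and a table of processed log2 values of the same arrays, which served as an alternative. The software's flags for outlier and dim spots served as filters. Each log2 intensity was reduced by the array's 75th percentile over non-control spots, spots flagged as outliers were dropped, and spots sharing a probe were averaged. A probe counted as well above background when at least 50% of its spots did. Limma 3.58.1 (R 4.3.3, lmFit and eBayes with trend, Benjamini-Hochberg) was fitted to 25149 genes with a probe well above background on mock or on all 3 hairpins, each gene read from its kept probe of highest mean. This gives the single mock array the spread of the hairpins. Counts used the 21487 genes measured on all 4 arrays, since a probe that passed the other filter through mock alone was chosen for a high mock value. Positions and gene names are those of the array annotation (hg19). Precision is limited by signal over background.

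The members and lists were chosen with earlier results of these data known. Named genes were all 7 members, UNC50 and, per list, genes at least 1.5-fold lower or higher with every hairpin plus at most 4 others of largest mean difference. For FGF19 and FGFR4 up to 5 genes of nearest pattern were found. Python 3.11.15 was used. Each sample received a different plasmid and so was a separate transfection, but the labels do not say whether these were done in parallel. Alternatives were median scaling, quantile normalization with or without normexp (offset 50), the authors' log2 table, raised low signals, retained outlier spots, the mean over probes, other filters, limma without trend, a 2-fold threshold, and each hairpin left out.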

Additional observations from a re-analysis of the deposited data

How the results depend on the processing

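The differences of the members kept their direction in 89 of 93 alternatives, the dim values of FGF21 included, and changed sign in 4. Limma without trend and the methods' t-test could not move a difference, and the filters and retained outlier spots left those of the members unchanged. The count therefore overstates stability. No adjusted p of a member went below 0.9997, and since no gene was called, this says nothing about stability. Leaving out 1 hairpin at a time gave -0.61 to 0.17 for FGFR2, -0.11 to 0.16 for FGFR3 and -0.34 to 0.04 for FGFR4, and the sign turned for each without shR-749 (0.165, -0.107 and 0.0397). KLB was at -0.0914 as the mean over its probes. Of 630 alternatives for 45 list genes, 626 kept their direction, again with settings that could not move a difference among them. FLRT3 ranged from -0.18 to 0.31 and LCTL from -0.14 to 0.10 when 1 hairpin was left out, and SHANK2 was at -0.13 as the mean over its probes. Genes at least 1.5-fold lower and higher numbered 627 and 502 (55.5% lower). The counts were 117 and 87 at 2-fold, 3369 and 1994 without the filter on dim probes, 239 and 241 after normexp with quantile normalization, and 600 and 592 (50.3% lower) after quantile normalization alone. They were 1935 lower and 574 higher (77.1% lower) with probes well above background on mock or on all 3 hairpins. Leaving out 1 hairpin gave 1103 and 683 without shR-467 (61.8% lower), 675 and 705 without shR-554 (48.9% lower) and 762 and 589 without shR-749. A block for slide or scan was not run because all arrays shared both. No paired analysis was possible because the labels number no replicates and the single mock array could pair with 1 hairpin at most.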
